A study of Drosophila melanogaster with 2 samples.

Results

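Peaks of CG12299 on chromosome 4 of Drosophila melanogaster were described from the authors' pooled list. It places 210 of its 29999 peaks on that chromosome, and all 210 were used. The pooled list and those of replicates 1 and 2 are of nearly equal length, with 29999, 30000 and 29999 peaks. They reach down to weak calls. The deposited -log10 q-value of the 210 had a median of 0.852 and a lowest value of 0.280. Many of the 210 therefore cannot each be taken as a bound site. Each of the 210 was marked by whether it also stands in the authors' thresholded list, which holds peaks that passed their irreproducible discovery rate threshold, and by whether each replicate's own list has a peak overlapping it by at least 1 bp. The study made ChIP-seq libraries from whole embryos aged 0 to 24 h, all of 1 transgenic line that stably expresses CG12299 with GFP fused to its C terminus, and precipitated chromatin with an antibody against GFP. There is 1 group of 2 biological replicates and no second genotype, tissue or treatment. Whole embryos mix all cell types and all stages of that window, so a peak cannot be assigned to a cell type. CG12299 is a C2H2 zinc finger protein, a class that often binds DNA in a sequence-dependent way.

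Chromosome 4, called the dot chromosome for its look in mitotic spreads, is the smallest chromosome of the fly. Its banded arm is known for dense repeats, for the heterochromatin protein HP1a and H3K9 methylation, and for genes that are nevertheless expressed, many of them bound by the chromosome-specific protein POF. It carries the Hedgehog pathway transcription factor ci, the Wingless pathway factor pan, the Pax6 genes ey and toy and the plexins PlexA and PlexB, among 80 protein-coding genes of the annotation.

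The assembled chromosome is 1348131 bp long, and 24.8% of its bases lie in annotated transposable elements, against 4.06% to 7.74% on the other arms. Its GC content was 35.2%, against 41.6% to 42.6% elsewhere. The sequences below show what lay at some of its strongest summits against this AT-rich and repetitive surrounding. Each is the plus strand of the dm6 build within 50 bp on either side of the summit, read from the RefSeq release 6 genome. The first 5 are, in order, the strongest chromosome 4 peaks without annotated UTR bases in that window; a site in the Mitf intron and the stronger of 2 Sox102F sites follow as examples of peaks at transcription factor genes. Capitals mark matches to 6 words searched on both strands: the DRE word TATCGATA, the BEAF-32 word TCGATA that it contains, the GAGA factor word GAGAG, the TATA box TATAAA, the AT-rich word TTTAAAA and the CA repeat CACACA.
zfh2 upstream peak, chr4:497860-497960: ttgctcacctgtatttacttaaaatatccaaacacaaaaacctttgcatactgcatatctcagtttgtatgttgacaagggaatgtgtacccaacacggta
gw promoter peak, chr4:660122-660222: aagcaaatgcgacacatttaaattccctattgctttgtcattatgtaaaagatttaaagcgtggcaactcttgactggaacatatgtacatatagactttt
lncRNA:CR43437 upstream peak, chr4:424786-424886: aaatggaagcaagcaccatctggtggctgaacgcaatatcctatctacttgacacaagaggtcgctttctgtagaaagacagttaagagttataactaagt
PlexA promoter peak, chr4:1027210-1027310: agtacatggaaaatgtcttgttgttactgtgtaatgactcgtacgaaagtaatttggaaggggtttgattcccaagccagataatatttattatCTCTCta
CaMKII promoter peak, chr4:1053911-1054011: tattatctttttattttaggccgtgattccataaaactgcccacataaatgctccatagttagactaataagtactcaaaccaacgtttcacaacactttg
Mitf intron peak, chr4:1199344-1199444: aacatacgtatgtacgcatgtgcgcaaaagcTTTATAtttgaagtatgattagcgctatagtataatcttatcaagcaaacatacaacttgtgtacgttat
Sox102F promoter peak, chr4:834756-834856: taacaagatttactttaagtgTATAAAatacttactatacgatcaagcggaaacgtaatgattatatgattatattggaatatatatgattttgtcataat

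Of these 7 sequences, 4 held none of the 6 words, and those of Mitf and Sox102F held a TATAAA match. Their GC content ran from 22.8% at Sox102F to 40.6% at lncRNA:CR43437.

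The pooled list placed 15.6 peaks per 100 kb on chromosome 4, against 22.5 on all other arms and 20.6 on X, the sparsest of them. Replicate 1's list gave 14.9 per 100 kb on chromosome 4 and replicate 2's list gave 19.0, from 201 and 256 peaks. The density was thus lower than on every other arm in both replicates, but the gap between the replicates was wider than that between chromosome 4 and X within replicate 2, whose density on X was 20.6. Transcription start sites (TSSs) were also sparser, at 13.4 per 100 kb on chromosome 4 and 17.3 elsewhere.

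The thresholded list held 26 of the 210 peaks, 12.4% (95% exact binomial interval 8.25 to 17.6), beside 12.2% of all pooled peaks. The difference from the other arms was 0.14 percentage points, with a 95% Newcombe interval from -3.67 to 5.30. A chromosome 4 peak thus stood in the thresholded list about as often as a peak elsewhere, within that interval. The list ends at a signalValue of 107.0, signalValue being the authors' peak score, whose scale is specific to each list. On chromosome 4 the lowest thresholded peak scored 108.9 and the highest peak outside the list 102.6.

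Within the thresholded list, chromosome 4 sites lay toward the weaker end. The strongest scored 492.3, which ranked 185 in the pooled list. The median of the 26 was 141.5, against 155.1 for the 3646 thresholded peaks of the other arms. Of the 26, 7 scored above the median of the thresholded list, 26.9%, against 50.2% elsewhere, and the interval of that difference was -36.6 to -4.01 percentage points. Over all 210 peaks the median was 47.7, with a range from 29.3 to 492.3, and it was not lower than the 44.4 of the other arms.

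**Figure D1:**
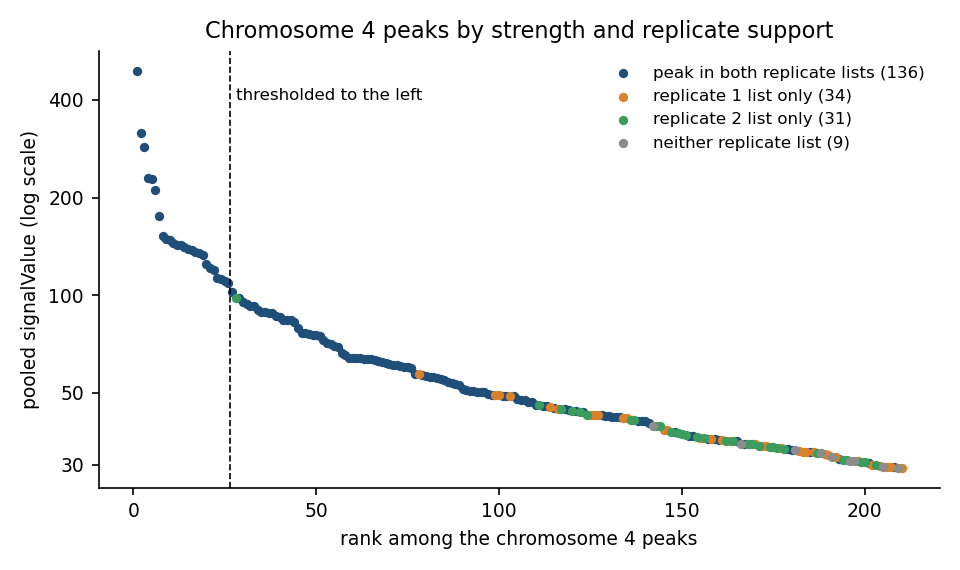
Pooled signalValue (vertical, log scale) of each of the 210 chromosome 4 peaks against its rank among them, coloured by the replicate lists that hold an overlapping peak. All 26 thresholded peaks, left of the dashed line, have a peak in both lists, and peaks found in 1 list or in neither gather at the weak end.

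Both replicate lists held an overlapping peak for 136 of the 210, 64.8%, beside 62.9% on the other arms (interval of the difference -4.80 to 8.06 percentage points). Replicate 1 alone covered 34, replicate 2 alone 31, and neither covered 9. Support followed strength closely, which is partly built in, since the pooled score draws on the reads of both replicates and the threshold on both lists. All of the strongest 26 were in both lists, as were 43 of the next 44, 52 of ranks 71 to 140 and 15 of ranks 141 to 210. Conversely, 31 of replicate 1's 201 peaks and 91 of replicate 2's 256 had no pooled peak.

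Among the 136 shared peaks, the replicates' signalValues had a Spearman's rho of 0.585, against 0.705 over 18727 shared peaks of the other arms. These are correlations across peaks that share 2 libraries and are given as a description. Neighbouring pooled peaks can overlap the same replicate peaks, so some pairs of values were counted more than once. Within the 26 thresholded peaks rho was 0.321, but it was not computed for thresholded peaks elsewhere, so it has no like comparison. Cut to the length of the thresholded list, the ranking of replicate 2 still held 17 of the 26 and that of replicate 1 held 21. On the other arms 85.2% of thresholded peaks did so in each replicate. The chromosome 4 share in replicate 2 was 65.4%, and its difference from the other arms had an interval of -39.0 to -4.55 percentage points.

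**Figure D2:**
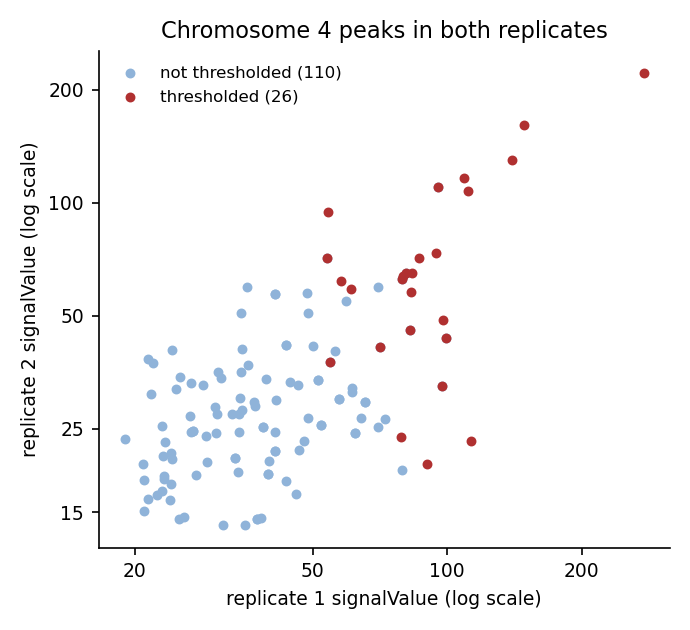
signalValue in replicate 1 (horizontal, log scale) and replicate 2 (vertical, log scale) for the 136 chromosome 4 peaks found in both lists, with the 26 thresholded peaks in red. Most thresholded peaks are high in both, and 3 near the bottom right score below 25 in replicate 2. Neighbouring pooled peaks that overlap the same replicate peaks fall on the same point.

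The strongest peak of the chromosome lay 3900 bp upstream of zfh2, which encodes a transcription factor with zinc fingers and homeodomains. It scored 492.3 in the pooled list, 275.5 in replicate 1 and 221.1 in replicate 2. Its ranks of 153 and 227 were the best on the chromosome in both replicates, so the replicates placed it first alike. It was also the narrowest, at 215 bp against 384 bp for the other 209, and no annotated gene covers its summit.

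The second peak scored 315.9 and lay far from any gene start, 9668 bp into Cals, which encodes calsyntenin, a membrane protein of the cadherin superfamily. Its summit at position 1113297 fell where the 3' ends of Cals and the Pax gene sv overlap, in 3' UTR sequence. It ranked 608 in replicate 1 and 428 in replicate 2, so both replicates held it among their stronger peaks. It was the only thresholded chromosome 4 summit placed in the 3' UTR class, which held 28 of 3646 elsewhere.

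Genes of translation, RNA and metabolism carried the 2 strongest promoter peaks of the chromosome. The summit at RpS3A, a protein of the small ribosomal subunit, lay 56 bp downstream of the TSS and scored 286.9, with 139.9 in replicate 1 and 129.7 in replicate 2. The peak at gw, whose GW182 protein acts in silencing by microRNAs, lay inside the gene, 189 bp upstream of an internal TSS. It scored 230.0, with 111.5 and 107.7 in the replicates. ATPsynbeta, the catalytic beta subunit of mitochondrial ATP synthase, had a summit inside the gene, 72 bp downstream of an internal TSS. It scored 149.2 and ranked 4647 in replicate 1 and 1168 in replicate 2. A peak scoring 147.9 stood inside Zyx, the gene of the focal adhesion protein zyxin, 161 bp downstream of an internal TSS. That peak was also 212 bp upstream of a TSS of apolpp, the precursor of the lipid carrier lipophorin. The 11 genes on the list of this name are a mixed set that also includes Tdg, Rad23 and JYalpha. Of the 11, 7 had a pooled summit in reach, meaning within 1000 bp of a TSS, and 4 a thresholded one. These shares of 63.6% and 36.4% stand beside 67.5% and 21.9% of all 114 chromosome 4 genes. All genes of this list and of those below are protein-coding, and the 80 protein-coding genes had 72.5% and 27.5%. The median over the strongest peaks of the listed genes was 147.9. Listed genes without any pooled summit in reach were eIF4G1, Gyf, yellow-h and JYalpha.

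Of the 15 listed signalling and axon guidance genes, 11 had a pooled summit, 73.3%, and 6 a thresholded one, 40%. All genes had the same 67.5% and 21.9%, and the protein-coding genes 72.5% and 27.5%. Zyx was counted here through the peak scoring 147.9 that also counts apolpp in the translation, RNA and metabolism list. The PlexA peak, at the promoter of a semaphorin receptor, lay 159 bp upstream and scored 210.8, with 95.5 in replicate 1 and 110.4 in replicate 2. PlexB, the other plexin, scored 124.7 at 45 bp downstream of its TSS, with 83.4 and 64.8 in the replicates. The peak at myo, which encodes the TGF-beta family ligand myoglianin, scored 137.6 at 14 bp downstream. That at the calcium/calmodulin-dependent kinase CaMKI scored 134.8, inside the gene and 64 bp downstream of an internal TSS. CaMKII, a related kinase outside the list, scored 151.7 at 258 bp upstream. Asator, a tau-tubulin kinase family member, had its thresholded summit 557 bp upstream, at 121.3, ranking 3710 in replicate 1 and 2777 in replicate 2. No pooled summit lay within 1000 bp of a TSS of Ephrin, its receptor gene Eph, Crk or PIP4K.

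Of the 18 transcription factor and chromatin genes, 12 had a pooled summit, 66.7%, and 4 a thresholded one, 22.2%. All genes had 67.5% and 21.9%, and the protein-coding genes, the like comparison, 72.5% and 27.5%. The 4 were ci, Mitf, Sox102F and pan. The ci promoter peak scored 175.9, with 94.4 in replicate 1 and 73.5 in replicate 2. It lay inside ci, 120 bp upstream of an internal TSS of that gene. It was also 46 bp upstream of asRNA:CR43957, an antisense RNA gene. A further 2 thresholded peaks, at 111.8 and 110.6, lay outside ci, 2076 bp and 3313 bp upstream of its outermost TSS. The Mitf peak, in an intron of the gene for a basic helix-loop-helix factor known for lysosomal genes, lay 536 bp downstream and scored 143.2. The Sox102F gene, which encodes an HMG-box factor, had 2 thresholded peaks at different TSSs. They scored 140.4 at 413 bp upstream and 138.8 at 174 bp upstream of an internal TSS, inside the gene. The first of these ranked far higher in replicate 1, at 1080, than in replicate 2, at 12797. The pan promoter peak, inside that gene and 56 bp upstream of an internal TSS, differed in the same direction. It held rank 1667 in replicate 1 and 16083 in replicate 2. The Pax genes toy and sv, and fd102C, fuss, pho and MED26, had no pooled summit in reach. The SKI family gene fuss nevertheless was the nearest gene to 2 thresholded peaks, 4478 bp and 1780 bp upstream of it, which scored 142.6 and 112.9, the latter ranking 2214 in replicate 1 and 12343 in replicate 2.

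Of the 13 listed synapse, membrane and transport genes, 11 had a pooled summit, 84.6%, and 2 a thresholded one, 15.4%. All genes had the same 67.5% and 21.9%, and the protein-coding genes 72.5% and 27.5%. The median strongest signalValue of the listed genes was 75.1, against 84.05 over the 77 of all 114 chromosome 4 genes with a summit. The kinesin gene Kif3C was counted through a peak scoring 145.2 that lay 928 bp upstream of it. That peak was inside CG32017, 9 bp upstream of an internal TSS of that gene. The peak at mGluR, the metabotropic glutamate receptor, scored 119.2 at 87 bp upstream. Slip1 was counted through a peak scoring 88.2 that lay 694 bp upstream of it, inside CG46466 and 96 bp from a TSS of that gene. The peak at unc-13, a priming factor of synaptic vesicles, scored 84.05. The remaining thresholded peaks scored 227.6 at 1231 bp upstream of lncRNA:CR43437 and 136.1 inside CG31999, 43 bp upstream of an internal TSS. The last scored 132.6 at 59 bp downstream of the TSS of Taf3, a subunit of the general factor TFIID.

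Over all 80 protein-coding genes, 58 had a pooled summit within 1000 bp of a TSS, 72.5% (61.4 to 81.9), beside 63.6% on the other arms. A thresholded summit was found at 22, 27.5% (18.1 to 38.6), beside 21.7%. Both shares were higher on chromosome 4, and both of its intervals include the value of the other arms. Fewer peaks per base thus went with no smaller share of genes having one.

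Summits on chromosome 4 lay near gene starts more often than elsewhere. Within 500 bp of a TSS were 89 of 210, 42.4%, against 34.6% on the other arms, a difference of 7.82 percentage points (1.31 to 14.6). Of the 210 peaks 55 overlapped a neighbour and each was counted on its own. The intervals here and for other shares thus treat them as separate sites, and the share was not recomputed on merged peaks. The difference was 8.78 points (2.10 to 15.7) in replicate 1's list and 11.99 points (5.96 to 18.1) in replicate 2's. That window covers 10.7% of the bases of chromosome 4 and 13.6% of the other arms, so the share of summits over the share of bases was 3.95 on chromosome 4 and 2.55 elsewhere. Among thresholded peaks the shares were 65.4% and 59.2%, and the interval of the difference, -13.03 to 21.5, leaves its direction unresolved. The median distance to the nearest TSS was 825.5 bp on chromosome 4 and 1254 bp elsewhere.

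**Figure D3:**
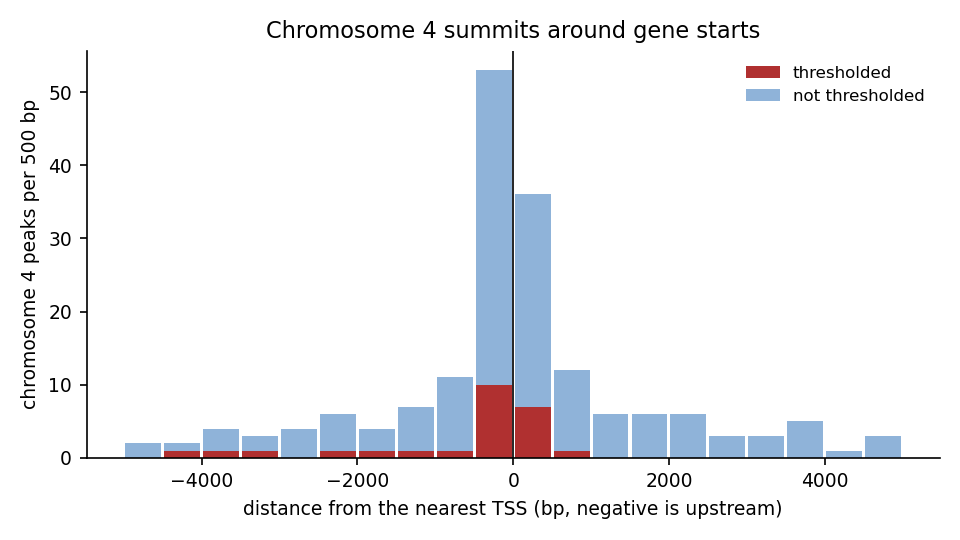
Number of chromosome 4 summits per 500 bp of distance from the nearest TSS, negative being upstream, with thresholded peaks in red. The 500 bp upstream hold 53 summits and the 500 bp downstream 36, and 33 of the 210 summits lie beyond 5000 bp and are not drawn.

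Introns showed the opposite pattern. They held 52 summits, 24.8%, against 40.6% on the other arms, a difference of -15.8 percentage points (-21.2 to -9.56). Once the TSS class was set aside, 43.0% of the remaining 121 summits were intronic, against 62.0% elsewhere, although introns made up 47.8% of the remaining bases on chromosome 4 and 45.6% on the other arms. The difference of -19.1 points (-27.6 to -10.1) was -17.7 in replicate 1's list and -15.9 in replicate 2's. Of the thresholded peaks, 2 were intronic, at Mitf and in asRNA:CR43957. Intergenic sequence held 46 summits, 21.9% against 16.5%, but this difference was 1.90 points (-2.87 to 7.85) in replicate 1 and -0.31 points (-4.32 to 4.70) in replicate 2, so it was not stable between the replicate lists.

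Along the chromosome the peaks were uneven. The fifth 100 kb segment, which holds the strong peak upstream of zfh2, had 34 pooled summits, and the third had 8. Thresholded peaks lay in 8 of the 14 segments, with 6 in the first, 5 in the fifth and none in the second, the fourth, the sixth, the eighth or the last 2. The busiest 25 kb, from position 482994 to 507823, held 20 summits, all nearest to Asator or zfh2, and replicate 1's own list held 21 over the same stretch. In replicate 2's list the busiest 25 kb was instead at ci, RpS3A and pan, with 18.

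**Figure D4:**
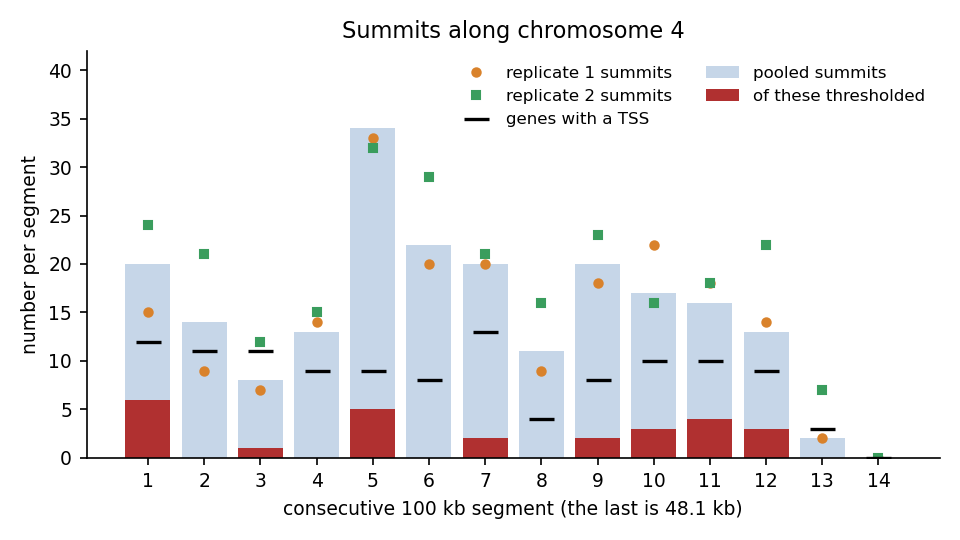
Summits in each consecutive 100 kb segment of chromosome 4 for the pooled list (bars, thresholded part in red) and the 2 replicate lists (points), with the number of genes that have a TSS there (dashes). The fifth segment stands out with 34 pooled summits and 9 genes. The last 2 segments hold 2 and 0 pooled summits, and the first of them holds 7 of replicate 2.

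Neighbouring summits were typically close together but separated by long empty stretches. The median gap was 1606 bp, near the 1659.5 bp of the other arms, while the mean was 5688 bp against 4220 bp. Gaps over 20 kb made up 8.61% of the 209 gaps, 18 in all, and 2.92% of those elsewhere. Together these 18 gaps spanned 576774 bp. The replicate lists had 19 and 13 such gaps.

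With summits no more than 2000 bp apart joined, the peaks formed 95 runs, of which 46 were single peaks and 9 held 5 or more. Those 9 contained 65 peaks, 11 of them thresholded. The largest run had 15 peaks in 13.9 kb across ci, RpS3A and pan, with 5 thresholded peaks and 13 in both replicate lists. A run of 8 lay at a start of Asator within 4.89 kb, 4 inside the gene and 4 in the intergenic sequence before it, with 1 thresholded peak. Runs of 7 lay at PlexA to ATPsynbeta and nearest to fuss and toy, each with 2 thresholded peaks, and at Tdg and Pur-alpha, with none. All 7 summits of the PlexA to ATPsynbeta run were in the TSS class, over 4.68 kb. By contrast, none of those in the fuss run were.

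The longest gap, 55.7 kb between positions 73613 and 129358, lay within pan, the TCF factor of Wingless signalling, and Ank, an ankyrin gene, and held no other gene. Replicate 1 had no summit in it and replicate 2 had 1. The next, 50.03 kb between Kif3C and Mitf, contained pho, a DNA-binding Polycomb group protein, CG33521 and PIP4K, and replicate 2 had 5 summits there and replicate 1 had 1. The third, 43.0 kb, held the calcium pump gene PMCA. The empty stretch of 116 kb after the last pooled summit was 76.1% transposable element. It held 3 summits of replicate 2 and 1 of replicate 1. The latter lay 10 bp past the last pooled summit and was matched to that same peak. Replicate summits counted in the gaps can likewise belong to the pooled peaks at their edges. Transposable elements made up 25.1%, 39.5% and 33.4% of the 3 longest gaps, in that order, and from 3.001% to 49.3% of the 12 longest, beside 24.8% of the whole chromosome.

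Transposable elements held few chromosome 4 summits for their extent, yet far more than on the other arms. Of the 210 summits 16 lay in one, 7.62% (4.42 to 12.1), against 0.248% elsewhere, a difference of 7.37 points (4.49 to 11.8). The share of summits over the share of bases was 0.308 on chromosome 4 and 0.0433 on the other arms. Replicate 1's list gave 18 of 201 and replicate 2's 16 of 256. None of the 26 thresholded summits lay in an element, a count of 0 with an exact upper bound of 13.2%. The highest of the 16 scored 62.0 and lay inside CG46466, 412 bp downstream of an internal TSS. The families were INE-1 with 9 summits and 1360 with 5, annotated on this chromosome in 344 and 60 copies, then Cr1a with 2 and Bari2 and jockey2 with 1 each; a summit in nested elements counts for both. How far the mapping of reads to repeated copies shaped these counts was not tested.

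GC content at thresholded sites was like that of other arms, but the sequence around them was not. The 26 thresholded summits had a GC content of 35.7% ± 7.69 (SD, n = 26 peaks) within 50 bp, close to the 34.1% ± 9.97 of the 3646 elsewhere. They were also near the 35.2% of chromosome 4 as a whole and the 36.4% ± 7.94 of its 184 summits outside the thresholded list. Summits outside that list had 41.3% ± 10.0 on the other arms, so only there did thresholded summits differ in GC content from the rest. Sequence 300 to 600 bp away on both sides had 30.6% ± 5.83 on chromosome 4 and 43.4% ± 6.48 on the other arms. The mean of summit minus sides was -9.29 percentage points on the other arms, from -8.44 on 2R to -10.1 on 3R, and 5.09 on chromosome 4, where summits were thus the richer in GC. The summit was lower than its sides at 8 of 26 chromosome 4 peaks, 30.8%, against 76.6% elsewhere, and the difference was -45.8 percentage points (-60.1 to -26.5). Over all 210 peaks the contrast was smaller, with 37.6% lower against 52.5% elsewhere, a difference of -14.9 points (-21.2 to -8.17), and means of 2.51 and -1.43 points.

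The same held for each replicate's own strongest peaks, taken to the length of the thresholded list, where 10 of 28 chromosome 4 summits were lower than their sides in replicate 1 and 7 of 24 in replicate 2. The mean of summit minus sides was 2.18 points and 4.86 points. In the TSS class alone 6 of 17 thresholded summits were lower. The peak of CG32017 had 48.5% GC at its summit and 23.5% beside it, and Mitf 32.7% and 14.5%. Sox102F at 174 bp upstream went the other way, with 29.7% and 47.5%. Against sides 100 to 300 bp away the mean difference on chromosome 4 was 1.03 ± 11.1 points and 11 of 26 were lower, while on the other arms it was -8.30 points and 74.3% were lower. All comparisons of summits with their sides, including those at 300 to 600 bp, were added after the data had been seen.

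**Figure D5:**
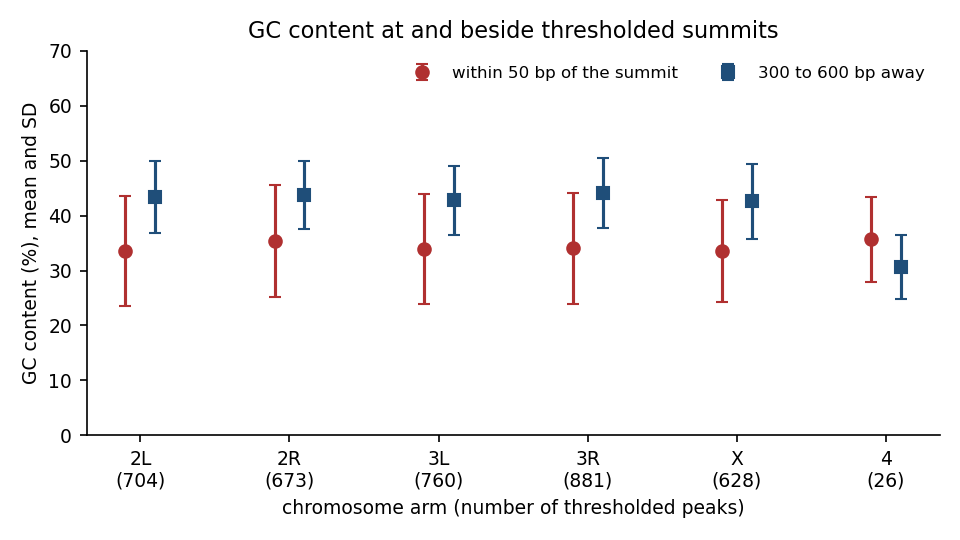
Mean GC content with SD over thresholded peaks, by chromosome arm, within 50 bp of the summit (red circles) and 300 to 600 bp away (blue squares), with the number of peaks in parentheses. Summits have similar GC content on all arms, from 33.5% to 35.7%, and chromosome 4 alone has sides poorer in GC than its summits.

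For each of the 6 words, the exact interval of its share among the 210 summits included its share among all 101 bp windows of chromosome 4. TTTAAAA, an AT-rich word, occurred within 50 bp of 28 of 210 summits, 13.3% (9.05 to 18.7), against 7.18% elsewhere, and it also occurred in 12.4% of all 101 bp windows of chromosome 4 and 5.73% of those of the other arms. TATAAA, the TATA box word, occurred at 35 summits, 16.7% (11.9 to 22.4), against 21.8% of chromosome 4 windows. On the other arms it stood at 14.5% of summits and in 11.6% of windows. GAGAG, a word bound by GAGA factor, occurred at 9.05% of summits and in 9.25% of windows, and CACACA at 7.62% (4.42 to 12.1) and 4.90%. TCGATA, a word of the insulator protein BEAF-32, occurred at 6.19% and in 5.41% of windows. TATCGATA, the DRE word, which contains TCGATA, occurred at 4 summits, 1.90% (0.521 to 4.80), and in 0.895% of windows. Among the 26 thresholded summits 5 held TATAAA, 4 CACACA, which is 15.4% (4.36 to 34.9), 2 TTTAAAA and 1 GAGAG. Neither TCGATA nor TATCGATA was found at any of the 26, which allows a share of up to 13.2% each and does not separate them from the 8.06% and 2.03% of thresholded summits elsewhere.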

How the data were processed

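ChIP-seq peak lists of 2 biological replicates of CG12299-GFP embryos were analysed, with fragments in a size range of 200 to 800 bp and the dm6 build, per the labels. The authors deposited a list per replicate, a pooled list and a thresholded list, called against a control alignment not analysed here, per the deposited manifests. The aligner and peak caller were not given in the sources used here. In each list the signalValue column is the authors' score, used only within a list, and the deposited -log10 q-value served as an alternative ranking. The lists hold no read counts, so depth is unknown and intervals cover counting error only. The pooled list's repeated position was counted once.

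The members, gene lists and words were chosen with earlier results of these data known. Genes named are those with the TSS nearest to each thresholded chromosome 4 peak, for each list the (at most 4) members with the strongest summit in 1000 bp of a TSS, and the neighbours of the longest gap; others were chosen after their values were seen, among them list members without a summit, genes in gaps or runs, CG46466 and the tied or second-nearest genes. Each summit was classed as TSS (500 bp or less away), else as 5' UTR, coding sequence, 3' UTR, any other exon, intron or intergenic, in that order, from the Ensembl release 115 annotation, without transposable elements. Shares have 95% exact binomial intervals and differences 95% Newcombe intervals, over 68 measures, unadjusted. Peaks are not replicates, and no p-value was computed. Functions were tested on simulated data. Python 3.11.15, numpy 2.4.6, pandas 2.3.3, scipy 1.17.1, statsmodels 0.14.6 and matplotlib 3.10.9 were used.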

Additional observations from a re-analysis of the deposited data

How the results depend on the processing

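Of the alternatives run, 44 left their result within its spread or interval and 29 moved it. With lists cut to the length of the thresholded list, the density on chromosome 4 was 1.93 per 100 kb in the pooled list, 2.08 in replicate 1's and 1.78 in replicate 2's. A shorter list lowers the density on every arm. In the thresholded list itself it was 1.93 on chromosome 4 and 2.75 on the other arms, so chromosome 4 remained the sparser. The share in the thresholded list was 3.33% when only those above its median counted. Peaks in both replicate lists made up 53.8% with 50% overlap required, 41.4% with summits within 100 bp and 27.6% with the strongest 10000 peaks of each replicate. The TSS share was 34.3% at 250 bp, 53.3% at 1000 bp and 65.4% for thresholded peaks. The median rank of chromosome 4 peaks, as a percentage of list length, was 44.8 in the pooled list and 46.0 to 48.6 in the replicate lists. The median gap was 1695.5 to 1874 bp in the replicate lists, 22782 bp for thresholded peaks and 2277.5 bp with overlapping peaks merged into 181 intervals. In the replicate lists mean GC content at summits was 35.8% to 36.1% and the share masked as repeats in the genome 20.05% to 21.9%, and the latter was 20.1% within 25 bp.

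With windows of 25 and 100 bp, words were found at 3.33% and 11.9% of summits for TCGATA, 3.81% and 20% for GAGAG, 6.19% and 31.4% for TATAAA, and 3.81% and 20.5% for TTTAAAA, and at 14.8% with 100 bp for CACACA. Thresholded members of the transcription factor list were 8 within 5000 bp of a TSS, and of the synapse list 1 within 500 bp and 1 by nearest gene. The share of chromosome 4 summits lower in GC than their sides, 30.8% for thresholded peaks, ran from 29.2% to 35.7% for the strongest peaks of each replicate's own list. No paired analysis was possible because there is 1 group. The pooled and thresholded lists draw on both replicates, and with unknown depth, weaker peaks missing from a list cannot be told from absent binding.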
